A study of Bos taurus with 4 samples.

Results

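The CUT&RUN peak lists of bovine embryonic stem cells held 190 narrow regions of trimethylated histone H3 lysine 4 (H3K4me3), under 1000 bp wide and outside every shared region of trimethylated lysine 27 (H3K27me3). They were chosen by measured width and overlap: a peak counted as shared when it overlapped one in the other replicate's list by 1 bp or more, all shared peaks of a mark were fused into regions, and H3K4me3 regions under 1000 bp that overlapped no such H3K27me3 region were kept. Chromosomes 1 to 22 and 24 to 29 were used, 28 chromosomes in all. The 190 narrow regions were 1.07% of the 17728 shared H3K4me3 regions there (95% Wilson interval 0.930% to 1.23%). Of those 17728 regions, 13357 carried no shared H3K27me3, and the narrow ones made up 1.42% of these (1.24% to 1.64%). Intervals in brackets after a share are of this kind throughout and reflect counting error alone. The narrow regions spanned 133.6 kb together, 0.214% of the 62448.2 kb under H3K4me3 regions.

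H3K4me3 is deposited at active and poised promoters, in particular those in CpG islands, where it typically forms domains that span several nucleosomes on either side of the transcription start. H3K27me3 is laid down by Polycomb repressive complex 2 at silent genes and often spreads over long domains, and in embryonic stem cells many developmental promoters carry both marks. In CUT&RUN, an antibody against the mark guides micrococcal nuclease to the chromatin and the fragments cut free are sequenced. Short peaks of H3K4me3 are known to lie at weak or shared promoters, at some enhancers and on the flanks of larger domains, and the lists used here do not assign a region to any of these classes.

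The study derived bovine embryonic stem cells in NBFR medium (NBFR-bESCs), a defined N2B27 base to which FGF2 (20 ng/mL), the inhibitor of canonical WNT signalling IWR-1 (2.5 µM) and BSA (1%) were added. Per the labels, the cells came from a single day 7 in vitro fertilized female blastocyst plated on mouse embryonic fibroblasts (MEFs) and were an established line after 4 passages. MEFs were depleted with feeder removal beads before CUT&RUN on 50000 cells per library, with 2 replicates for each of the 2 marks and no other treatment or genotype to compare, and the number of MEFs left was not measured here. The study's description of its tracks speaks of a pair of independently derived lines without saying which library came from which, so the difference between replicates may be technical or may lie between lines. The lists hold positions and a score and no reads, so the depth of each library is unknown, no cell type marker could be checked, and a region without a peak is described as not listed. For H3K4me3, 21407 peaks of replicate 1 and 19839 of replicate 2 fell on the 28 chromosomes, with median widths of 2400 and 2600 bp, and for H3K27me3 the numbers were 15046 and 14221.

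The narrow regions formed the lower tail of the width distribution. Peaks come in windows of 200 bp, so only 4 widths are possible below 1000 bp. There were 5 regions of 200 bp, 12 of 400 bp, 53 of 600 bp and 120 of 800 bp, so 63.2% of the narrow regions were of the widest class allowed. The numbers of regions without H3K27me3 continued upward past the limit, to 275 at 1000 bp and 421 at 1200 bp, and the median width of all shared H3K4me3 regions was 3200 bp. In the plot of region widths, the narrow regions are the red bars at the left edge of a rising slope, and no gap separates them from wider regions. The number rests on both libraries, since the same width and overlap limits gave 1718 regions in replicate 1 alone and 825 in replicate 2 alone.

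**Figure D1:**
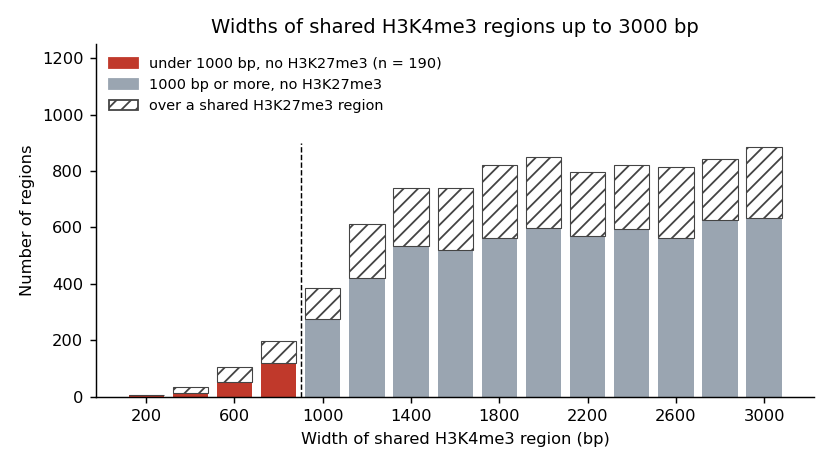
Number of shared H3K4me3 regions (vertical axis) by width in bp (horizontal axis, steps of 200 bp, up to 3000 bp). Solid bars are regions without a shared H3K27me3 region, red below 1000 bp (n = 190) and grey above, and hatched bars are regions over H3K27me3. The counts rise from 5 at 200 bp to 120 at 800 bp and 275 at 1000 bp without a break at the dashed width limit.

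Scores and distances to wider regions were close just inside and just outside the limit, while the share over H3K27me3 differed. The 120 regions of 800 bp had median scores of 45 in replicate 1 and 40.5 in replicate 2. The 275 regions of 1000 bp had 50 and 46. A wider H3K4me3 region lay within 5 kb of 26.7% of the former and 33.5% of the latter, and over 100 kb away for 11.7% and 13.8%. Of all shared H3K4me3 regions, 38.8% at 800 bp (32.2% to 45.75%) overlapped H3K27me3, against 28.4% at 1000 bp (24.1% to 33.1%). In width, score and distance to wider regions, the limit is therefore a cut through a continuous distribution, and these values describe it without a test.

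Narrow H3K4me3 regions overlapped H3K27me3 more often than wide ones, and the rule removed those that did. Of the 344 shared H3K4me3 regions under 1000 bp, 154 overlapped a shared H3K27me3 region, a share of 44.8% (39.6% to 50.1%). Among the 17384 regions of 1000 bp or more the share was 24.3% (23.6% to 24.9%). By width it was 37.5% at 200 bp (3 of 8 regions), 65.7% at 400 bp (23 of 35), 49.5% at 600 bp (52 of 105), 38.8% at 800 bp (76 of 196), 28.4% at 1000 bp and 31.2% at 1200 bp. When regions were taken from a single replicate of both marks, the shares below and above the limit were 25.6% and 23.6% in replicate 1 and 30.6% and 24.1% in replicate 2. The difference between narrow and wide regions was thus smaller within a library than in the shared set.

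Most narrow peaks of a single library did not end up among the 190 regions. Replicate 1 listed 2308 H3K4me3 peaks under 1000 bp, 10.8% of its peaks, and replicate 2 listed 1188, 5.99% of its peaks. A partner in replicate 2 was found for 1243 of those of replicate 1, or 53.9% (51.8% to 55.9%), against 86.1% of its peaks of any width. In replicate 2 the count was 900, or 75.8% (73.2% to 78.1%), against 92.7% of its peaks of any width. Narrow peaks were therefore shared less often than peaks as a whole in both libraries. Because sharing was part of the rule, these shares describe how the regions were reached.

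The share of peaks with a partner rose with width. In replicate 1 it was 43.9% at 200 bp (18 of 41 peaks), 46.4% at 400 bp, 53.4% at 600 bp, 56.4% at 800 bp and 60.8% at 1000 bp. It was 71.5% over the widths of 1000 to 1800 bp and 98.9% at 2000 bp or more. In replicate 2 the narrow classes lay between 69.5% at 400 bp and 78.1% at 600 bp, with 72.2% at 200 bp (13 of 18), and the shares were 82.4% for 1000 to 1800 bp and 98.4% for 2000 bp or more. Below 1400 bp the points of replicate 2 lie above those of replicate 1 in the plot of replicate overlap by width, and from 1800 bp the curves meet. The narrow peaks that were shared also scored somewhat higher than those that were not, with medians of 41 against 34 in replicate 1 and 40 against 34 in replicate 2.

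**Figure D2:**
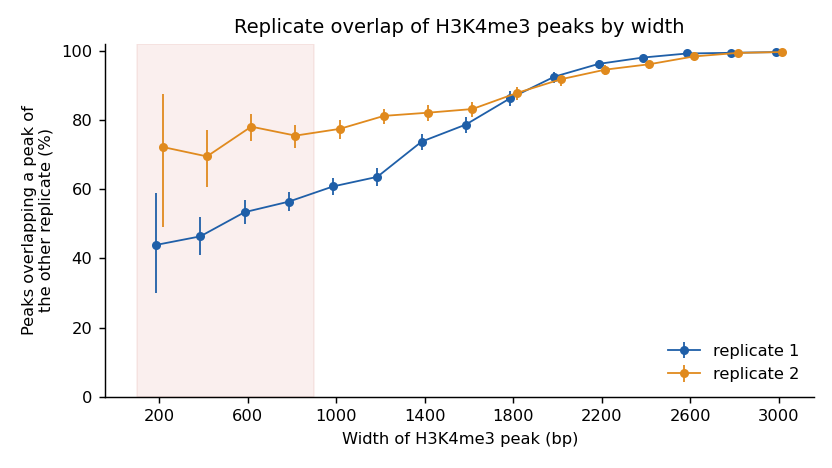
Share of H3K4me3 peaks with a partner in the other replicate, by 1 bp or more (vertical axis, %) by peak width in bp (horizontal axis). Points are the share in each library, bars are 95% Wilson intervals and the shaded band covers widths under 1000 bp. At 200 bp the shares are 43.9% in replicate 1 and 72.2% in replicate 2, and above 2000 bp both approach 100%.

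The narrow peaks met different ends. In replicate 1, 1065 of the 2308 (46.1%) had no partner, 190 (8.23%) became the narrow regions described here, 154 (6.67%) became narrow regions over H3K27me3, 632 (27.4%) were taken up by a wider region without H3K27me3 and 267 (11.6%) by a wider region over H3K27me3. In replicate 2, 288 of the 1188 (24.2%) had no partner, 190 (16%) and 154 (13.0%) became narrow regions, and 393 (33.1%) and 163 (13.7%) were taken up by wider ones. The wider regions that took up a narrow peak had a median width of 1400 bp in both libraries, so many stood close to the limit. Among regions without H3K27me3, 464 were narrow in replicate 1 and at least 1000 bp in replicate 2, and 275 were the other way round. Another 38 held only narrow peaks in both libraries and reached 1000 bp once these were merged.

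Each of the 190 narrow regions consisted of exactly 1 peak in each replicate. The width limit leaves little room for more, since peaks within an H3K4me3 list were at least 400 bp apart. The peak widths ranged from 200 to 800 bp with a median of 600 bp and quartiles of 600 and 800 bp in both libraries. The limits were the same to the window in 79 regions, a share of 41.6% (34.8% to 48.7%). Of the 10176 regions of 1000 to 4800 bp without H3K27me3 that also had 1 peak in each replicate, 6.70% had the same limits in both, a comparison in which a wider region has more room to differ. Summed over both ends, the limits of the narrow regions moved by a median of 200 bp and at most 600 bp, against a median of 600 bp in those wider regions. A region of at most 800 bp whose peaks share 200 bp cannot give a sum above 600 bp. The width limit thus bounds the values of the narrow regions, and nothing is read from this comparison. In 175 narrow regions (92.1%) the peak of one replicate lay inside that of the other or had its limits. The stretch common to both replicates was 200 bp in 14 regions, 400 bp in 53, 600 bp in 85 and 800 bp in 38. Neither library was the wider one throughout: the peak was wider in replicate 2 in 52 regions, wider in replicate 1 in 47 and of equal width in 91.

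The score in the lists is the authors' whole number for each peak, and the source does not name what it measures, so it is used only within a list. Scores of the narrow regions were low in both libraries. In replicate 1 they ran from 20 to 113 with a median of 41 and quartiles of 35 and 51.75, where the whole list ran from 19 to 8587 with a median of 186. In replicate 2 they ran from 20 to 112 with a median of 38 and quartiles of 33 and 48, in a list from 20 to 8173 with a median of 206. The whole lists, of 26048 and 23986 peaks, include peaks outside the 28 chromosomes and are the basis of the percentiles below. On the 28 chromosomes the median scores were 244 and 257. The authors' calls used an E-value limit of 500, which sets how many islands per genome a random background may give, and its part in these low-scoring regions was not tested. None of the 190 reached the median of its list in either library, and 155 (81.6%) in replicate 1 and 181 (95.3%) in replicate 2 lay in the lowest 25% of their list. The median narrow region stood at percentile 12.2 of its list in replicate 1 and 4.84 in replicate 2, and the highest at 41.5 and 37.8. Scores rose with width, with medians of 25, 29, 38 and 45 at 200, 400, 600 and 800 bp in replicate 1 and 21, 32, 36 and 40.5 in replicate 2. Width was chosen by the rule and a score can grow with the number of windows, so the low scores and this rise are a description. Per window of 200 bp, all peaks under 1000 bp, shared or not, had median scores of 11.25 in replicate 1 and 11.5 in replicate 2. These were 10.1 and 9.6 for peaks of 1000 to 1800 bp, and 20.2 and 19.3 for peaks of any width.

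Within the set, a region that scored high in one library tended to score high in the other, with a Pearson r of 0.695 and a Spearman rho of 0.580 over the 190 regions. Regions of the same 2 libraries are not independent replicates, and the correlation is given without a test. In the plot of scores, 160 of the points lie below 60 on both axes, far from the dashed list medians. The 4 regions above 75 in both libraries are among those described next.

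**Figure D3:**
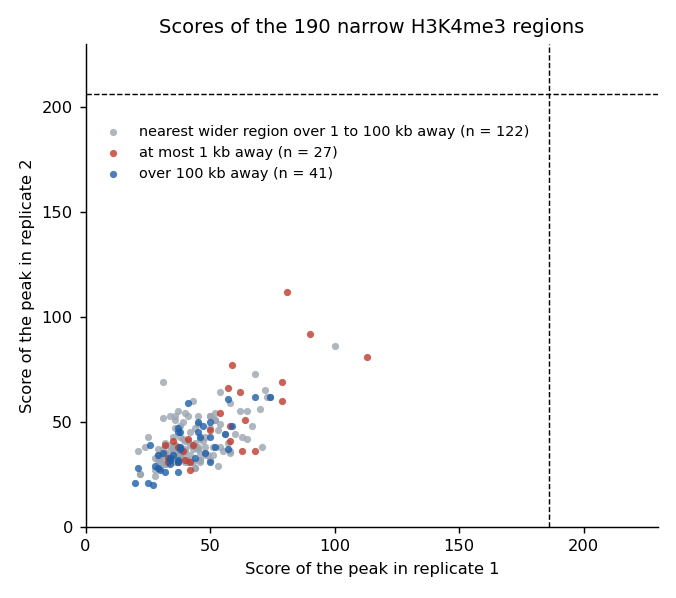
Score of the peak in replicate 1 (horizontal axis) against replicate 2 (vertical axis) for each of the 190 narrow H3K4me3 regions, in the authors' score units. Colours give the distance to the nearest H3K4me3 region of 1000 bp or more, at most 1 kb (red, n = 27), over 1 to 100 kb (grey) or over 100 kb (blue, n = 41), and dashed lines are the list medians of 186 and 206. All points lie below both medians, and 3 of the 4 points above 75 in both replicates are red.

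The 5 narrow regions with the highest rank in both libraries were named by a fixed rule. At chr22:59913001-59913600 (ARS-UCD1.2, as are all positions here) the same 600 bp were listed in both replicates, with scores of 81 and 112, which are percentiles 34.6 and 37.8 of the lists. A wider H3K4me3 region of 3.6 kb lay 0.4 kb away, and the nearest H3K27me3 region lay 19.2 kb away. At chr1:142131201-142132000 both replicates gave the same 800 bp with scores of 90 and 92, at 0.4 kb from a wider region of 1.4 kb. A gap of 400 bp is also the smallest one found between peaks within either H3K4me3 list.

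At chr15:76342801-76343600 the same 800 bp were listed with scores of 113 and 81, again 0.4 kb from a wider region, here of 2.2 kb. The other 2 of the 5 had no such neighbour. At chr10:9370001-9370800 the same 800 bp scored 100 and 86, with the nearest wider region 31.4 kb and the nearest H3K27me3 region 593.4 kb away. At chr7:51945601-51946400 the scores were 68 and 73, the peak of replicate 2 began 1 window later at 51945801, and the nearest wider region lay 28 kb away and itself overlapped H3K27me3. Thus 3 of the 5 narrow regions ranked highest by this rule were close companions of a wider region and 2 were not.

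The rule set no distance to wider H3K4me3 regions, but it bears on spacing, since narrow peaks that overlapped or touched a wider peak were joined to it. More of the narrow regions than of the regions of 1000 bp or more stood far from any other wide region, though not those of 800 bp. The share standing close to one was similar with the rule as set and differed more under some alternatives. From a narrow region to the nearest wider H3K4me3 region the distance ran from 0.2 to 1037.4 kb, with quartiles of 4.4, 23.3 and 70.2 kb. For the 13167 regions of 1000 bp or more without H3K27me3, the quartiles of the distance to the nearest other such wide region, marked by H3K27me3 or not, were 5.4, 18.8 and 53 kb. The medians gave no stable order: without replicate 1 they were 14 kb for narrow and 15.8 kb for wider regions, and without replicate 2 both were 15.6 kb. Beyond 100 kb lay 41 narrow regions, 21.6% (16.3% to 28%), against 13.0% of the wider regions (12.5% to 13.6%). Without replicate 1 these shares were 14.7% and 11.6%, and without replicate 2 they were 15.3% and 11.4%. This share was 12.9% for the 10469 regions of 1000 to 4800 bp and 13.5% for the 2698 of 5000 bp or more. Among the narrow regions it was 70.6% for the 17 of 200 or 400 bp and 28.3% for the 53 of 600 bp. For the 120 of 800 bp it was 11.7% (7.08% to 18.6%), and the 13.0% of the wider regions lay inside that interval.

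At the near end the difference was smaller with the rule as set, but not under every alternative. A wider region lay at most 1 kb from 27 narrow regions, 14.2% (9.95% to 19.9%), against 10.1% (9.57% to 10.6%) of the wider regions. Within 5 kb the count was 51, 26.8% (21.0% to 33.6%), and the 23.9% of the wider regions fell inside that interval. When at least 50% of a peak had to overlap, the shares of narrow and wider regions within 5 kb were 34.5% and 24.8%. Without replicate 1 they were 35.0% and 28.7%, and without replicate 2 they were 31.6% and 29.3%. The narrow share was higher in 7 alternatives and lower in 3. Distances of over 5 to 20 kb were held by 19.5% of the narrow and 27.4% of the wider regions, and distances of over 20 to 100 kb by 32.1% and 35.6%. A wider region within 5 kb on both sides was seen for 4 narrow regions, 2.11% against 2.57%. In the left panel of the distance plot, the red curve of the narrow regions is above the others at 1 kb, crosses them at intermediate distances, is below them at 100 kb and ends before them, at 1037.4 kb.

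**Figure D4:**
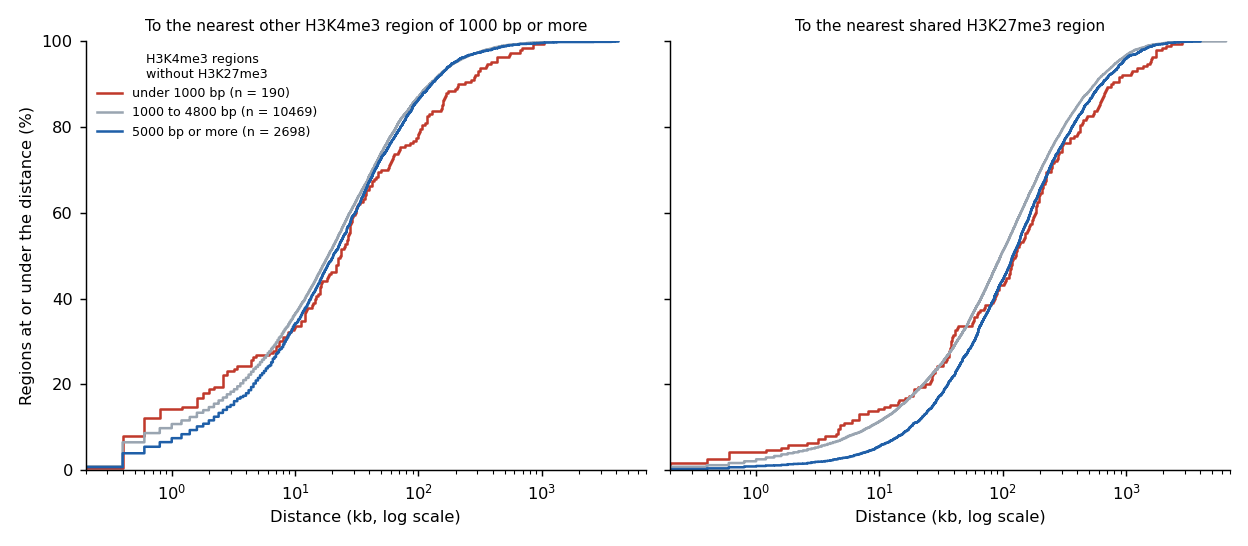
Cumulative share of H3K4me3 regions without H3K27me3 (vertical axis, %) by distance in kb on a log scale (horizontal axis), to the nearest other H3K4me3 region of 1000 bp or more (left) and to the nearest shared H3K27me3 region (right), with touching regions drawn at 0.2 kb. Red is the 190 narrow regions, grey the 10469 regions of 1000 to 4800 bp and blue the 2698 of 5000 bp or more. On the left, 21.6% of the narrow regions lie beyond 100 kb against 12.9% and 13.5% of the others, and on the right the red curve is above both at 1 kb and later crosses them.

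Among the narrow regions, the shortest were the most isolated. Of the 17 regions of 200 or 400 bp, 12 lay over 100 kb from a wider region, 70.6% (46.9% to 86.7%), and a single one had a wider region within 5 kb. Of the 173 regions of 600 or 800 bp, 29 lay over 100 kb away, 16.8% (11.9% to 23%), and 50 (28.9%) had a wider region within 5 kb. The share over 100 kb away was 28.3% at 600 bp (15 of 53) and 11.7% at 800 bp (14 of 120). The median distance was 156 kb at 200 bp, 138.4 kb at 400 bp, 23.4 kb at 600 bp and 18.7 kb at 800 bp. The median of the 120 regions of 800 bp was close to the 18.8 kb of the wider regions.

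The dependence of isolation on width was weaker in either library taken alone. In replicate 1 alone, 44 of 250 regions of 200 or 400 bp without H3K27me3 lay over 100 kb from a wider region, 17.6% (13.4% to 22.8%), against 13.9% at 600 bp, 15.5% at 800 bp and 11.4% at 1000 bp or more. In replicate 2 alone the share was 28.6% at 200 or 400 bp (22 of 77, 19.7% to 39.5%), 13.3% at 600 bp, 13.2% at 800 bp and 11.6% above. Within 5 kb of a wider region, no such dependence was seen in either library. In replicate 1 the shares were 29.6% at 200 or 400 bp, 34.0% at 600 bp and 30.6% at 800 bp, and in replicate 2 they were 36.4%, 35.4% and 34.6%, against 1 of the 17 shortest regions in the shared set. Of the shares over 100 kb away, those at 600 and 800 bp lay inside the interval of the shortest regions in replicate 1, at 13.9% and 15.5%, and below it in replicate 2. A short peak beside a wide one can be joined to it when the replicates are merged and so become part of a wider region. The part this played was not tested.

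The 27 narrow regions within 1 kb of a wider one had widths much like those of the whole set and included 3 of the 4 regions that scored above 75 in both replicates. Of these 27, 11 were 600 bp wide and 16 were 800 bp wide, where 173 of the 190 had one of these widths. The gap to the neighbour was 0.2 kb in 1 case, 0.4 kb in 14, 0.6 kb in 8 and 0.8 kb in 4, where the smallest gap between peaks within an H3K4me3 list was 400 bp. The neighbours had a median width of 2600 bp and ran from 1400 to 16400 bp, and 2 of the 27 were of 5000 bp or more. Scores of these narrow regions had medians of 54 in replicate 1 and 41 in replicate 2, against 40 and 38 in the 163 other narrow regions. Of the 27, 2 had an H3K27me3 region within 5 kb.

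Of the 41 narrow regions over 100 kb from a wider one, 12 were of 200 or 400 bp, against 17 in the set of 190. Their median scores were 37 and 35, against 41 and 38 in the whole set, with highest values of 74 and 62, and scores rose with width as given above. The median distance to the nearest wider region was 206.2 kb, and that region overlapped H3K27me3 in 11 of the 41 (26.8%), against 18.4% of the 190. The nearest H3K27me3 region was a median of 278.6 kb away, and 2 of the 41 had one within 5 kb. For at least 29 of these 41 regions, H3K27me3 was over 100 kb away as well. The same held for at least 1414 of the 1718 wider regions that lay over 100 kb from another wide one, so it was not particular to narrow regions.

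The 5 regions farthest from any other shared H3K4me3 region were named by rule. At chr14:79723801-79724400 the scores were 50 and 50, the peak of replicate 1 covered the first 400 bp of the 600 bp listed in replicate 2, and no other H3K4me3 region was listed within 1037.4 kb. At chr9:78772401-78772800 the same 400 bp were listed in both replicates with scores of 29 and 34, and the distance was 856 kb. At chr9:2054201-2054800 replicate 1 listed a single window, 2054401 to 2054600, with a score of 26, and replicate 2 listed all 600 bp with a score of 39. This last region lay 855 kb from the next H3K4me3 region and was overlapped over 400 bp by an H3K27me3 peak of replicate 1 that had no partner.

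At chr24:6023201-6023400 both replicates listed the same single window of 200 bp, with scores of 27 and 20, 689 kb from other H3K4me3 and 686.6 kb from H3K27me3. At chr5:58317601-58318000 replicate 1 listed the latter 200 bp with a score of 21 and replicate 2 listed 400 bp with a score of 28. It lay 665.6 kb from other H3K4me3 but 0.4 kb from an H3K27me3 region. Of these 5 isolated regions, 3 had H3K27me3 at 38.4, 40.6 and 63.2 kb, 1 had it next to it and 1 had it as far away as other H3K4me3.

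The narrow regions were sparse, at 0.0780 per Mb over the 28 chromosomes, and no expected number of pairs was worked out. Joined over gaps of up to 10 kb, they formed 184 single regions and 3 pairs. At chr12:85159001-85161000 a pair of 800 bp regions lay 400 bp apart, with scores of 65 and 55 for the first and 65 and 42 for the second, the same limits in both replicates and the nearest wider region at 36.6 kb. At chr8:38500001-38506200 a 400 bp region with scores of 29 and 28 and a 600 bp region with scores of 74 and 62 lay 5200 bp apart, 106.6 kb from a wider region. At chr22:42707201-42715000 a 600 bp region with scores of 44 and 33 and an 800 bp region with scores of 47 and 48 lay 6400 bp apart, 158 kb from a wider region and 1747.4 kb from H3K27me3. None of the 3 pairs was thus within 5 kb of a wider region.

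Counted over all widths, the nearest shared H3K4me3 region was itself under 1000 bp for 8 narrow regions (4.21%), and its distance had a median of 21.4 kb. Peaks that had no partner added few neighbours. An unshared H3K4me3 peak lay within 5 kb of 13 narrow regions in replicate 1 (6.84%) and of 4 in replicate 2 (2.11%). Of all H3K4me3 peaks, 86.1% in replicate 1 and 92.7% in replicate 2 had a partner, so replicate 1 held more unshared peaks. No share of the wider regions stands beside these counts.

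The rule removed every narrow region that overlapped shared H3K27me3, but it set no distance. A larger share of narrow than of wider regions had H3K27me3 within 5 kb, though not at 600 bp. The share of the wider regions over 100 kb from it lay inside the interval of the narrow ones. The distance ran from 0.2 to 2843.6 kb with quartiles of 33.35, 126 and 301.85 kb, against 34.9, 101.4 and 255.8 kb for the regions of 1000 bp or more. Within 5 kb the count was 20, 10.5% (6.92% to 15.7%), against 6.42% (6.01% to 6.85%) of the wider regions, 7.34% of those of 1000 to 4800 bp and 2.85% of those of 5000 bp or more. The share in regions of 1000 to 4800 bp fell inside the interval of the narrow regions and that of the widest class fell below it. By width, the narrow share was 11.8% for the 17 of 200 or 400 bp, 5.66% for the 53 of 600 bp and 12.5% for the 120 of 800 bp. Over 100 kb from H3K27me3 lay 108 narrow regions, 56.8% (49.7% to 63.7%), against 50.3% of the wider ones, 48.9% of those of 1000 to 4800 bp and 55.7% of those of 5000 bp or more, and of these only the 48.9% fell outside the interval.

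At most 1 kb from H3K27me3 lay 8 narrow regions, 4.21% (2.15% to 8.09%), against 2.20% (1.97% to 2.47%) of the wider ones, which lay inside the interval of the narrow regions. The distances of over 1 to 5 kb held 6.32% and 4.22%, those of over 5 to 20 kb held 8.42% and 10.6%, and those of over 20 to 100 kb held 24.2% and 32.7%. In 48 narrow regions (25.3%, 19.6% to 31.9%) H3K27me3 was closer than a wider H3K4me3 region was, against 19% of the wider regions. The nearest wider H3K4me3 region itself overlapped H3K27me3 for 35 narrow regions, 18.4% (13.6% to 24.5%), against 13.4%. In the last 2 comparisons the wider regions lay just below the interval of the narrow ones, while for regions of 1000 to 4800 bp the shares were 20.5% and 14.4%, both inside it.

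The 3 narrow regions nearest to H3K27me3 all lay 0.2 kb from it. At chr3:118051401-118052000 both replicates listed the same 600 bp with scores of 46 and 43, and the nearest wider H3K4me3 region was 305 kb away. At chr10:64992401-64993200 replicate 1 listed 600 bp up to 64993000 with a score of 31 and replicate 2 all 800 bp with a score of 69, and a wider region lay 25.6 kb away. At chr7:95791201-95792000 the replicates shared just 200 bp, with scores of 40 and 32, and a wider H3K4me3 region of 3 kb that did overlap H3K27me3 lay 0.2 kb away. These 3 thus had a close H3K27me3 neighbour in 3 different surroundings.

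Some narrow regions carried H3K27me3 in a single library. An H3K27me3 peak without a partner overlapped 5 of them in replicate 1 and 6 in replicate 2, 11 in all (5.79%, 3.26% to 10.1%), against 2.93% of the wider regions. For these 11 the nearest shared H3K27me3 region was 2.6 to 438 kb away, with a median of 39.2 kb. Taken over both neighbours, 9 narrow regions (4.74%, 2.51% to 8.76%) had a wider H3K4me3 region and an H3K27me3 region within 5 kb, against 2.16% of the wider regions. At the other end, 29 (15.3%, 10.8% to 21.1%) were over 100 kb from any other H3K4me3 region and from H3K27me3, against 10.7%.

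Every one of the 28 chromosomes held at least 1 narrow region. The counts ran from 1 on chromosome 27 to 11 on chromosomes 7, 11 and 15, with a median of 6. Per Mb, with the last peak of the 4 lists as the end of a chromosome, the density was 0.0780 over all and 0.0221 on chromosome 27, with a median of 0.0812. The highest densities were 0.145 on chromosome 24, 0.143 on chromosome 21 and 0.142 on chromosome 25. As a share of the shared H3K4me3 regions of a chromosome, narrow regions ran from 0.284% on chromosome 19 (3 of 1058) to 2.79% on chromosome 24 (9 of 323).

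The density of narrow regions followed that of other H3K4me3 regions loosely, with a Pearson r of 0.305 and a Spearman rho of 0.440 over the 28 chromosomes. These are given as a description, since all points come from the same 4 libraries. In the plot by chromosome, chromosome 19 is the point with many H3K4me3 regions and few narrow ones, chromosome 25 has many of both, and chromosome 24 has few H3K4me3 regions and the highest density of narrow ones. With 1 to 11 narrow regions per chromosome, single densities are imprecise.

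**Figure D5:**
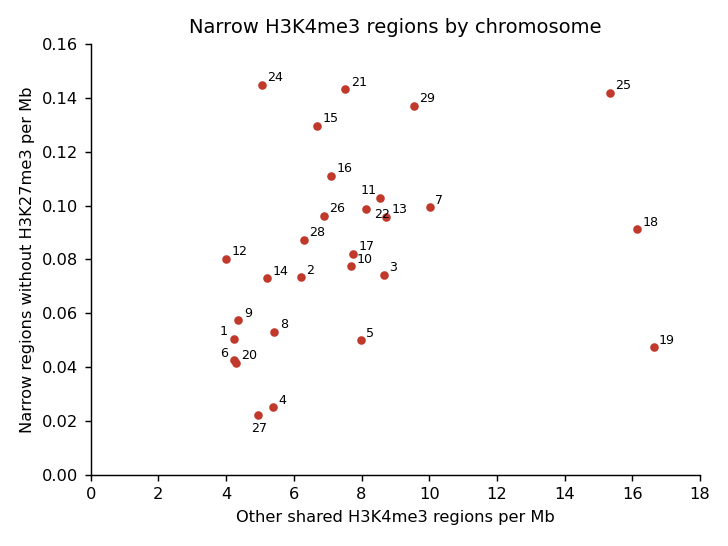
Narrow H3K4me3 regions without H3K27me3 per Mb (vertical axis) against other shared H3K4me3 regions per Mb (horizontal axis), with 1 point for each of the 28 chromosomes, labelled by number. Densities run from 0.0221 on chromosome 27 to 0.145 on chromosome 24, and chromosome 19 stands at the right with 3 narrow regions.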

How the data were processed

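CUT&RUN libraries for H3K4me3 and H3K27me3 from NBFR-bESCs, 2 replicates each, were used as deposited peak lists. Per the submitters' processing notes and the study's methods, the authors trimmed reads with Trim Galore and cutadapt 1.18, mapped the trimmed reads with BWA 0.7.17-r1188 to ARS-UCD1.2, filtered them with SAMtools 1.7 and called peaks with epic2 (listed as SICER 0.0.41) in windows of 200 bp with an E-value limit of 500, and up to 1 gap for H3K4me3 and 5 for H3K27me3. No control library is stated and replicates were called separately. The deposited lists give a score per peak, a whole number made by the authors that no header names, which was ranked within a list only. Read depth is not given in the lists.

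Peaks were overlapped and merged, touching ones included, with Python 3.11.15, numpy 2.4.6, pandas 2.3.3 and scipy 1.17.1, and plotted with matplotlib 3.10.9. bedtools 2.31.1 gave the same counts of 17728 H3K4me3 regions, 10254 H3K27me3 regions and 190 narrow regions, and on simulated lists 100% of 604 planted narrow regions were found. Distances are the base pairs between region ends. Shares have 95% Wilson intervals, and no p-values were computed. The rule for named regions took the 5 with the highest lower-of-both score percentile, the 5 farthest from other H3K4me3, the 3 stretches with the most narrow regions over gaps of up to 10 kb and the 3 nearest to H3K27me3, with ties ordered by score percentile. The members and lists were chosen with earlier results of these data known. Spacing by width within a single library, and the shares over 100 kb from a wider region and within 5 kb of H3K27me3, were added after the data were seen. The gene table at hand is of ARS-UCD2.0, so no region was assigned to a gene, and no sequence is shown, as a genome of ARS-UCD1.2 was not used here.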

Additional observations from a re-analysis of the deposited data

Results flagged for a closer look

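Chromosomes 23 and X lay outside the chromosomes compared. By the same rule, chromosome 23 held 7 narrow H3K4me3 regions without H3K27me3, 0.599% of its 1169 shared H3K4me3 regions and 0.133 per Mb, with another 6 narrow regions over H3K27me3. Chromosome X held 12, 1.75% of its 686 regions and 0.0863 per Mb, with another 17 narrow regions over H3K27me3. Both are given here because they hold such regions outside the 28 chromosomes of the report, and they enter a single alternative, that of chromosomes 1 to 29 and X. The density on chromosome 23 lay within the range of the 28 chromosomes, as did that on chromosome X.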

How the results depend on the processing

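The number of narrow regions moved from 190 to 1256 with peaks of either replicate, 542 when at least 50% of a peak had to overlap, 2 with peaks at or above the median score, 70 and 465 with width limits of 800 and 1200 bp, and 825 to 1718 when a replicate was left out. It was 179 without H3K27me3 peaks of either replicate, 161 with regions at most 1 kb apart joined and 209 with chromosomes 1 to 29 and X. The 2 regions at the median score are not among the 190, since none of the 190 reached the median of its list. Single-replicate lists lack the overlap filter by construction. In the order either replicate, 50% overlap, median score, 800 bp and 1200 bp, the median distance to a wider H3K4me3 region (23.3 kb) became 18, 14.8, 59, 27.1 and 20 kb, 27.8 kb with regions joined and 14 to 15.6 kb with a replicate left out. This median was below that of the wider regions at 50% overlap (18.6 kb) and without replicate 1 (15.8 kb), and equal to it without replicate 2, so its direction against wider regions was not stable. In the same order, the median distance to H3K27me3 (126 kb) became 94.9, 115.8, 28, 143.3 and 106.6 kb, 115 kb with chromosomes 1 to 29 and X and 91.6 to 96.7 kb with a replicate left out, above that of the wider regions except with the 2 regions at the median score.

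The share with a wider region within 5 kb (26.8%) became 34.5% at 50% overlap, 0% at the median score, 30.1% at 1200 bp, 14.9% with regions joined and 31.6% to 35.0% with a replicate left out. The share was below that of the wider regions with either replicate, at the median score (2 regions) and with regions joined. It was above in 7 alternatives. Among these it was 34.5% against 24.8% at 50% overlap, 35.0% against 28.7% without replicate 1 and 30.1% against 23.1% at 1200 bp. A pair of further shares was chosen after seeing the data and run under the same alternatives. The share over 100 kb from a wider region (21.6%) became 15.8%, 15.3%, 50%, 37.1% and 17.4% in the order above, 20.1% without H3K27me3 peaks of either replicate, 25.5% with regions joined and 14.7% to 15.3% with a replicate left out. This lay above the wider regions in 10 of the 10 alternatives, which re-use the same 4 lists and are not independent. The one at the median score holds only 2 regions. The share within 5 kb of H3K27me3 (10.5%) became 50% at the median score (the same 2 regions), 7.14% at 800 bp and 14.4% with chromosomes 1 to 29 and X. It was again above the wider regions in 10 of 10, but by 8.76% against 8.40% with either replicate and 7.14% against 6.47% at 800 bp. The cause of these shifts was not tested. With both marks taken from 1 replicate, the share within 5 kb of H3K27me3 was 9.20% against 7.09% without replicate 2 and 12% against 8.31% without replicate 1. With a replicate block, no paired analysis was possible because there was no fit to which a block could be added. The unknown depth limits any reading of regions not listed, and the low scores leave the set close to the lower limit of the lists.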

Other observations

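In the last 10% of a chromosome, measured up to its last peak, lay 41 of the 190 narrow regions, 21.6% (16.3% to 28%), against 15.1% (14.5% to 15.7%) of the regions of 1000 bp or more without H3K27me3. In the first 10% lay 20, 10.5% (6.92% to 15.7%), against 8.16% (7.71% to 8.64%), which lies inside the interval of the narrow regions. The place along the chromosome was looked at after the data were seen, and the shares have no test.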
